A study of Mus musculus with 18 samples.

Results

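The 10 genes described here encode secreted factors that act on blood vessels and 2 of the receptors that read them. They were taken by gene symbol from the 27131 rows of the deposited expression table: the ligands Vegfa, Vegfb, Vegfc and Pgf, the secreted proteins Adm, Angptl4, Angpt1 and Angpt2, and the receptors Kdr and Flt1. All 10 symbols matched 1 row each. The values came from colon tissue of untreated C57BL/6 mice, 9 libraries of the genotype Hif2a +/+ (WT) and 9 of the genotype written Hif2a LFL in the sample labels and LSL in the design text (HIF2), which the labels describe as mice that overexpress HIF2 in the colon. Replicate numbers run from 0 to 8 in each group. The age of the mice, and the promoter and cell type in which the allele is active, were not given in the sources used here. Whether the libraries of a group are different mice is left unsaid in the labels, and p-values therefore reflect library-to-library spread, part of which may be technical.

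HIF-2α, encoded by Epas1, is a transcription factor that is degraded when oxygen is plentiful, and vessel growth factors are among the genes that hypoxia-inducible factors are known to switch on. VEGF-A, made by epithelial and stromal cells, signals to endothelial cells through VEGFR2 (Kdr), while VEGFR1 (Flt1) binds VEGF-A, VEGF-B and PlGF and acts in part as a decoy. The angiopoietins act on the endothelial receptor TIE2, where ANGPT1 steadies vessels and ANGPT2 usually opposes it. In the gut, endothelial cells and the mural and stromal cells around them lie below the epithelium, so a library of whole colon tissue mixes RNA from all of them.

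In HIF2, 3 of the 10 genes passed the test and all 3 rose: Angptl4 and Adm, both secreted, and the receptor gene Kdr. The test was limma on log2(FPKM + 1), where FPKM is the number of fragments scaled by transcript length and library size, with p-values adjusted by Benjamini-Hochberg over all 13976 genes with a mean of at least 1 FPKM and a threshold of 0.05. Of the 10 genes, 9 passed that filter and Angpt1 did not. Over all genes tested, 11.0% were higher in HIF2 and 11.1% were lower by the same rule, so 3 of 9 higher and 0 lower stand beside those shares. At an unadjusted p under 0.05 in limma, 6 of the 9 were higher and 1 was lower, beside 15.9% and 17.8% of all genes. In an exact rank test with adjustment over all genes 4 were higher and 0 lower, beside 8.78% and 10% of all genes. The median difference of the 9 genes was 0.61 on the log2 scale, against -0.02 over all genes tested. Pgf and Flt1 reached a mean of 1 FPKM only through HIF2 replicate 0. Without that library their means were 0.578 and 0.760 FPKM, so the 9 that passed the filter are not an even sample of the family. Pgf and Flt1 are among the 6 genes at an unadjusted p under 0.05 and among the 4 of the rank test. The median of 0.61 is the value of Flt1 itself. The 3 called genes each had a WT mean of at least 1 FPKM, as did 7 of the 9 tested genes.

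None of the 10 genes had all HIF2 libraries above all WT libraries, which held for 0.758% of all genes tested, and none had all HIF2 libraries below, which held for 1.27%. Angptl4 came nearest, with 8 of the 9 HIF2 libraries above the highest WT library, followed by Adm, Pgf, Angpt1 and Kdr with 7 each.

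**Figure D1:**
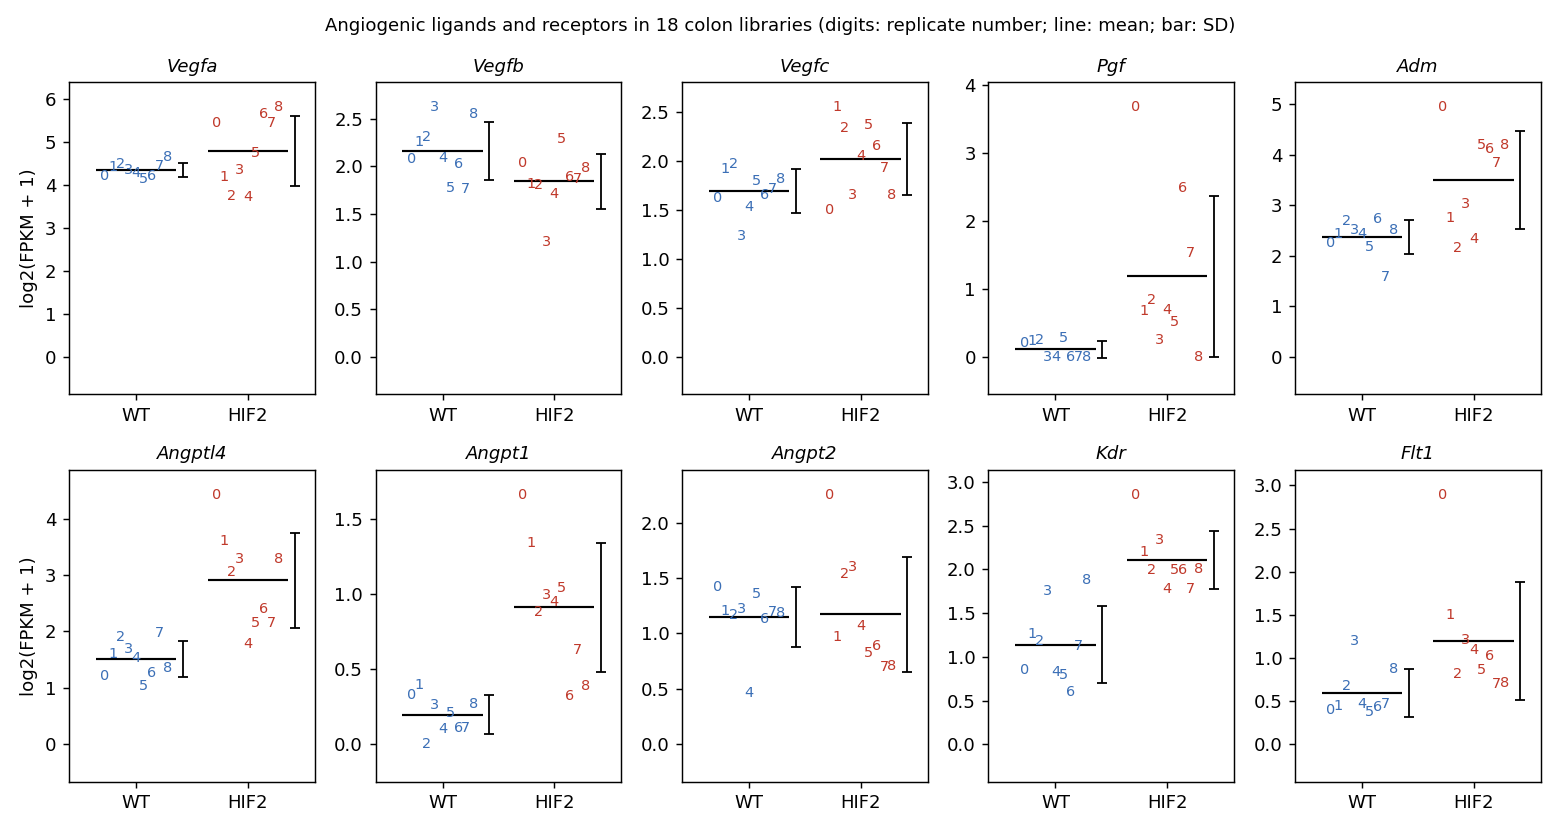
Expression of the 10 genes in each library, as log2(FPKM + 1) on the vertical axis, with WT in blue and HIF2 in red and each digit giving the replicate number. Black lines are group means and bars are SD (n = 9 each). HIF2 replicate 0 is the highest library for Adm, Angptl4, Angpt1, Angpt2, Pgf, Kdr and Flt1, while HIF2 replicate 8 is the highest for Vegfa.

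Several facts of the libraries bear on every value. Epas1 itself lay between 13.8 and 23.0 FPKM in WT and between 16.6 and 35.9 FPKM in HIF2, a difference of 0.24 on the log2 scale (SE 0.14, limma adjusted p = 0.246, exact permutation p = 0.116). The 4 HIF2 libraries above the WT maximum for Epas1 were replicates 0, 6, 7 and 8. The tissue label was met by colon epithelial genes, whose 12 matched members summed to between 13178 and 19967 FPKM in WT and between 10295 and 16345 FPKM in HIF2. HIF2 replicates 6, 7 and 8 stood apart on the second principal component, which carried 11.2% of the variance. In those 3 libraries the mean of 20 smooth muscle genes lay between -0.50 and 0.37 on the log2 scale relative to WT, whereas in HIF2 replicates 0 to 5 it lay between 2.72 and 3.55, and in WT replicate 3 it was 2.38. HIF2 replicate 0 alone held a high level of neutrophil genes, whose 9 matched members summed to 844 FPKM there and to at most 4.03 FPKM in WT. In bulk tissue, more cells of a type and more RNA per cell cannot be told apart. Sex is not given in the labels, and 5 sex-linked genes showed 2 patterns in each group. Their mean relative to WT was 0.8 to 1.22 in WT replicates 0 to 4 and -1.46 to -1.17 in WT replicates 5 to 8. It was 0.89 to 1.1 in HIF2 replicates 0, 1, 2, 4 and 5, and -1.43 to -1.25 in HIF2 replicates 3, 6, 7 and 8.

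Vegfa was the most abundant of the 10 genes in both groups, and its level split the HIF2 libraries. It lay between 16.5 and 24.1 FPKM in WT with a median of 19.3. In HIF2 it was 42, 49.1, 42 and 54.9 FPKM in replicates 0, 6, 7 and 8, 25.8 in replicate 5, and 17.0 and 19.3 in replicates 1 and 3. In replicates 2 and 4 it was 12.4 and 12.2 FPKM. HIF2 thus had 5 libraries above the whole WT range, 2 inside it and 2 below it, and WT was far tighter, with an SD of 2.38 FPKM against 16.6. The difference was 0.43 on the log2 scale (95% confidence interval -0.11 to 0.98, limma adjusted p = 0.266) and did not pass. Without HIF2 replicates 6 to 8 it was 0.01 (adjusted p = 0.979). Adding the mean of the smooth muscle genes to the limma model gave 1.08, which passed (adjusted p = 0.010). That mean was itself 2.23 higher in HIF2, so the fit cannot tell apart what the genotype and the smooth muscle level share. The smooth muscle mean was lowest among HIF2 libraries in replicates 6, 7 and 8, where Vegfa was high, and was also high in replicates 0 and 5, where Vegfa exceeded the WT range too.

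The stretch of DNA just upstream of Vegfa is shown because Vegfa is a standard example of a gene driven by hypoxia-inducible factors. Sequences are from RefSeq, build GRCm38.p6, cover 250 bases before to 50 bases after the annotated start, and were found for 7 of the 10 genes. They read 5′ to 3′ on the gene's strand. Capitals mark the core letters of the hypoxia response element, ACGTG or GCGTG, searched on both strands, so that CACGT and CACGC are the same cores read on the other strand. The search letters overlap those of the CACGTG motif of other factors. Of 32851 windows in the table, 43.8% held at least 1 core and 20.6% held 2 or more. The main Vegfa window (chr17:46032328-46032627, minus strand) held none of these letters, and a second RefSeq window at a start inside the gene (chr17:46025114-46025413) held 2. Bases outside these windows were not searched, so a core farther upstream would not be seen.
Vegfa: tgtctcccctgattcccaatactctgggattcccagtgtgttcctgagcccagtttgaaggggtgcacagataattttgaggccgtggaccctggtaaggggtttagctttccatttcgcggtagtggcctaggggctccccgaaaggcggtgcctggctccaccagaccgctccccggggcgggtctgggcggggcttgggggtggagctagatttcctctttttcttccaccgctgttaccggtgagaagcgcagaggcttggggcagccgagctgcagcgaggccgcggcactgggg

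Vegfb and Vegfc leaned in opposite directions and neither passed. Vegfb encodes a ligand of VEGFR1 linked to fatty acid handling and averaged 3.57 ± 0.971 FPKM over the WT libraries and 2.65 ± 0.687 FPKM over the HIF2 libraries (SD, n = 9 each). Only HIF2 replicate 5 was above the WT median of 3.26 FPKM, and replicates 3 and 4 were below the WT range. The difference was -0.32 (95% confidence interval -0.61 to -0.03, limma adjusted p = 0.114), and it passed with quantile normalization (-0.45, adjusted p = 0.0314) and with array weights (-0.39, adjusted p = 0.0477). Its window, shown because Vegfb carried as many cores as Adm and Kdr, lies at chr19:6987602-6987901 on the minus strand.
Vegfb: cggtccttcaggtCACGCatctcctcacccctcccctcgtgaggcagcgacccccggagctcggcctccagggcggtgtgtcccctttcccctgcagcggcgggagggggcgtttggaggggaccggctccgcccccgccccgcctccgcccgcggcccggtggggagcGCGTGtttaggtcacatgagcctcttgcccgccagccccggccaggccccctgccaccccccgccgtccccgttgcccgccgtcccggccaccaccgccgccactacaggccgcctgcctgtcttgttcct

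Vegfc, the main growth factor of lymphatic vessels, ranged from 1.36 to 2.91 FPKM in WT and from 1.83 to 4.84 in HIF2, with medians of 2.28 and 3.14. The groups overlapped, with 5 HIF2 libraries above the WT maximum. The difference of 0.33 (95% confidence interval 0.03 to 0.63, limma adjusted p = 0.114) passed with upper quartile scaling (0.41, adjusted p = 0.0467) and without HIF2 replicate 0 (0.39, adjusted p = 0.0444). Lymphatic marker genes were higher in HIF2 as a group. All 5 tested of 6 were called higher, beside 11.0% of all genes. The 6 genes summed to 1.59 to 13.3 FPKM in WT and 5.90 to 67.2 FPKM in HIF2. The highest sum, 67.2 FPKM, was in HIF2 replicate 0, which had the lowest Vegfc of the HIF2 libraries, 1.83 FPKM. In HIF2 replicate 5 both were high, at 55.6 and 4.17 FPKM. Markers low in WT could enter the test through their HIF2 level. The part of these markers in the Vegfc values was not tested.

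Pgf encodes placental growth factor, a ligand of VEGFR1 that is nearly silent in most resting tissues. It was listed at 0 in 5 WT libraries and reached at most 0.217 FPKM in the other 4. In HIF2 it was 11.8 FPKM in replicate 0, 4.58 in replicate 6 and 1.90 in replicate 7. Replicates 1 to 5 lay between 0.188 and 0.793 FPKM, and replicate 8 was listed at 0. The groups overlapped through HIF2 replicates 3 and 8, and most of the group mean came from a single library. The difference of 1.08 (SE 0.38) narrowly missed the threshold (limma adjusted p = 0.0511). It passed in the exact rank test (adjusted p = 0.0194), with array weights (0.69, adjusted p = 0.0476), with a robust prior, with upper quartile scaling, without HIF2 replicate 0 (0.76, adjusted p = 0.0433) and without each of HIF2 replicates 3, 4, 5 and 8. With a pseudocount of 0.1 in place of 1, which gives low genes more weight, Pgf was 2.61 higher (adjusted p = 0.0175) and Flt1 also passed, making 5 of 9 beside 10.8% of all genes. Pgf at less than 1 FPKM rests on few fragments, and the read depth is not known.

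The 4 VEGF family ligands can be set side by side because FPKM is scaled per length. Vegfa made up between 74.7% and 81.5% of their summed FPKM in WT and between 62.9% and 91.5% in HIF2. The lowest Vegfa shares were in HIF2 replicates 2, 4 and 1, where Vegfc made up 20.4%, 17.2% and 19.4%, against at most 11.4% in WT. In HIF2 replicate 8 Vegfa made up 91.5%, and in HIF2 replicate 0 Pgf made up 20%. The summed FPKM of the 4 ligands was 21.7 to 31.4 in WT and 18.3 to 60 in HIF2. These shares are descriptions and were not tested.

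Adm encodes adrenomedullin, a peptide that widens vessels and supports the endothelial barrier, and it rose in HIF2. Levels lay between 2.00 and 5.59 FPKM in WT with a median of 4.42. In HIF2 they were 29.7 FPKM in replicate 0, 17.3, 16.3, 13.2 and 17.4 in replicates 5, 6, 7 and 8, and 5.75 and 7.19 in replicates 1 and 3. Replicates 2 and 4, at 3.45 and 4.0 FPKM, were inside the WT range and below the WT median. The difference was 1.13 on the log2 scale (SE 0.32, limma adjusted p = 0.0153), or 4.29 ± 1.09 against 12.7 ± 8.55 FPKM (SD, n = 9 each). The call was lost in the exact rank test (adjusted p = 0.0765), without HIF2 replicates 6 to 8 (0.86, adjusted p = 0.0918) and with the mean of the endothelial marker genes as a covariate (0.99, adjusted p = 0.168). The 5 HIF2 libraries highest in Adm were also the 5 in which Vegfa exceeded the WT range, and replicates 2 and 4 were lowest for both genes.

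The Adm window (chr7:110627407-110627706, plus strand) is shown because Adm is among the genes that rose. It held 2 GCGTG cores, both on the complementary strand, whose printed letters begin at -90 and -54 from the start.
Adm: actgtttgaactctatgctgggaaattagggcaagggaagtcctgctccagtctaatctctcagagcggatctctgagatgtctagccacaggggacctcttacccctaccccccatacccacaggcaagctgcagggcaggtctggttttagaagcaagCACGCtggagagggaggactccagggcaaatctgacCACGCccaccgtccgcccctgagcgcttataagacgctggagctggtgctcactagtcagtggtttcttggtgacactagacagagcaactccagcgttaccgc

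Angptl4 rose in HIF2 by 1.40 on the log2(FPKM + 1) scale. It encodes a secreted inhibitor of lipoprotein lipase that also acts on vessel permeability, and is a known target of both hypoxia-inducible factors and PPARs. The gene (chromosome 17, 33773750 to 33781830, GRCm38) was at 1.05 to 2.94 FPKM in WT, with a median of 1.87. In HIF2 replicates 0 to 4 it was 20.5, 11.1, 7.33, 8.76 and 2.45 FPKM, and in replicates 5 to 8 it was 3.43, 4.24, 3.46 and 8.77. HIF2 replicate 4 was the only one inside the WT range, and all 9 HIF2 libraries exceeded the WT median. The mean rose from 1.90 ± 0.642 to 7.79 ± 5.64 FPKM (SD, n = 9 each) (SE of the log2 difference 0.28, limma adjusted p = 0.00189). The difference was 1.21 without HIF2 replicate 0 (adjusted p = 0.00168) and 1.55 without HIF2 replicates 6 to 8 (adjusted p = 0.00207). It was 0.69 with the endothelial covariate, where the call was lost (adjusted p = 0.206). Its order over the HIF2 libraries differed from that of Vegfa and Adm, since replicates 1, 2 and 3 were among the 5 highest for Angptl4 and were at or below WT levels for Vegfa. Adipocyte genes, markers of a cell type known for high Angptl4, showed 0 of 7 called in either direction, with a summed level of 14.3 to 127 FPKM in WT and 15.5 to 138 FPKM in HIF2. Their mean was 0.83 to 1.54 above the WT mean in HIF2 replicates 1 to 5, 0.16 above it in replicate 0 and below it in replicates 6, 7 and 8, and in WT replicates 2 and 3 it was 1.37 and 1.54 above. The part of adipocyte RNA in the Angptl4 values was not tested.

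The angiopoietin genes were both low, and the balance between them differed across the libraries. Angpt1, which is made mostly by mural and stromal cells, was at most 0.317 FPKM in WT, with 1 library listed at 0, and between 0.248 and 2.16 FPKM in HIF2. Of the 9 HIF2 libraries, 7 were above the WT range, and replicates 6 and 8, at 0.248 and 0.310 FPKM, were inside it. Its mean over all libraries of 0.554 FPKM was below the filter. Compared alone, it differed by 0.71 on the log2 scale (exact permutation p = 2.06e-04, two-sided), and with no filter it passed in limma (adjusted p = 0.00278), where 10.6% of all genes were called higher. An antisense gene, Gm17473, shares exonic sequence with Angpt1. The TruSeq RNA kit named in the labels does not mark strand, so reads of both cannot be told apart. Pericyte genes were also higher in HIF2 as a group, as were other marker lists given below. All 6 tested of 8 were called higher, beside 11.0% of all genes. The 8 genes summed to 1.55 to 61.3 FPKM in WT and 45.4 to 243 FPKM in HIF2. Higd1b was listed at 0 in at least 9 libraries. Pericyte genes low in WT could enter the test through their HIF2 level. The pericyte mean was 1.43, 1.41 and 0.93 above WT in HIF2 replicates 6, 7 and 8, and 1.87 to 3.28 above it in the other 6 HIF2 libraries. In WT replicate 3 it was 1.37 above the WT mean, while Angpt1 there was 0.196 FPKM. The part of pericyte RNA in the Angpt1 values was not tested.

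Angpt2, released by endothelial cells, did not follow. It ranged from 0.382 to 1.67 FPKM in WT and from 0.622 to 3.77 in HIF2, with medians of 1.29 and 0.953. HIF2 replicates 0, 2 and 3 were above the WT range and the other 6 were inside it. The difference was 0.02 (95% confidence interval -0.39 to 0.44, limma adjusted p = 0.956), and its sign changed with the setting. The ratio of Angpt2 to Angpt1 was between 4.09 and 17.1 in the 8 WT libraries with Angpt1 above 0, and between 0.620 and 3.41 in the 9 HIF2 libraries, with no overlap. The ratio was not tested, and it divides by Angpt1 levels of at most 0.317 FPKM in WT.

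Kdr, the receptor through which most VEGF-A signalling in endothelial cells passes, rose in HIF2. WT libraries lay between 0.513 and 2.67 FPKM with a median of 1.18. The 2 highest WT libraries were replicates 3 and 8, at 2.36 and 2.67 FPKM. HIF2 libraries lay between 2.42 and 6.24 FPKM with a median of 3.0, and the lowest of them, replicates 4 and 7 at 2.43 and 2.42 FPKM, were the 2 inside the WT range. The mean went from 1.30 ± 0.750 to 3.42 ± 1.18 FPKM (SD, n = 9 each), a rise of 0.97 on the log2 scale (SE 0.18, limma adjusted p = 0.00104). It was 0.87 without HIF2 replicate 0 (adjusted p = 0.00140) and 1.06 without HIF2 replicates 6 to 8 (adjusted p = 0.00159). With the endothelial covariate it was 0.33 and the call was lost (adjusted p = 0.215). In contrast to Vegfa, Kdr lay between 2.42 and 4.06 FPKM in all HIF2 libraries but replicate 0. The Kdr window (chr5:75978406-75978705, minus strand), shown as that of the receptor that rose, held 2 GCGTG cores beginning at -131 and -89 from the start.
Kdr: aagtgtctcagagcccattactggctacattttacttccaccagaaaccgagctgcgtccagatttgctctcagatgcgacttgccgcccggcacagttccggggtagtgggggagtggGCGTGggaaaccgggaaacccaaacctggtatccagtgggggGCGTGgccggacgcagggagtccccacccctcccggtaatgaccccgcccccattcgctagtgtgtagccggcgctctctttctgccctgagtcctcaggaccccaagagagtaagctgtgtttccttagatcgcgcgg

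Flt1, the decoy-like receptor, was lower than Kdr in every WT library. It lay between 0.293 and 1.29 FPKM in WT, with replicate 3 highest, and between 0.620 and 6.43 FPKM in HIF2, with replicate 0 far above the next highest, replicate 1 at 1.83 FPKM. All 9 HIF2 libraries exceeded the WT median of 0.380 FPKM, yet 6 of them lay inside the WT range. The difference of 0.61 (SE 0.24, limma adjusted p = 0.0830) did not pass, and it passed in the exact rank test (adjusted p = 0.0332), with array weights (adjusted p = 0.00985) and without HIF2 replicates 6 to 8 (0.80, adjusted p = 0.0366). The ratio of Flt1 to Kdr had a median of 0.401 in WT and 0.323 in HIF2, with overlapping ranges of 0.259 to 0.672 and 0.209 to 1.03. The value of 1.03 was that of HIF2 replicate 0. Without that library the Flt1 difference was 0.40 and did not pass (limma adjusted p = 0.0601). Flt1 was tested only because of that library, since its mean was 0.760 FPKM without it. The settings in which Flt1 passed share this limit. The Flt1 and Pgf windows held 1 core each, the main Vegfc window held none, and a second Pgf window held none.

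**Figure D2:**
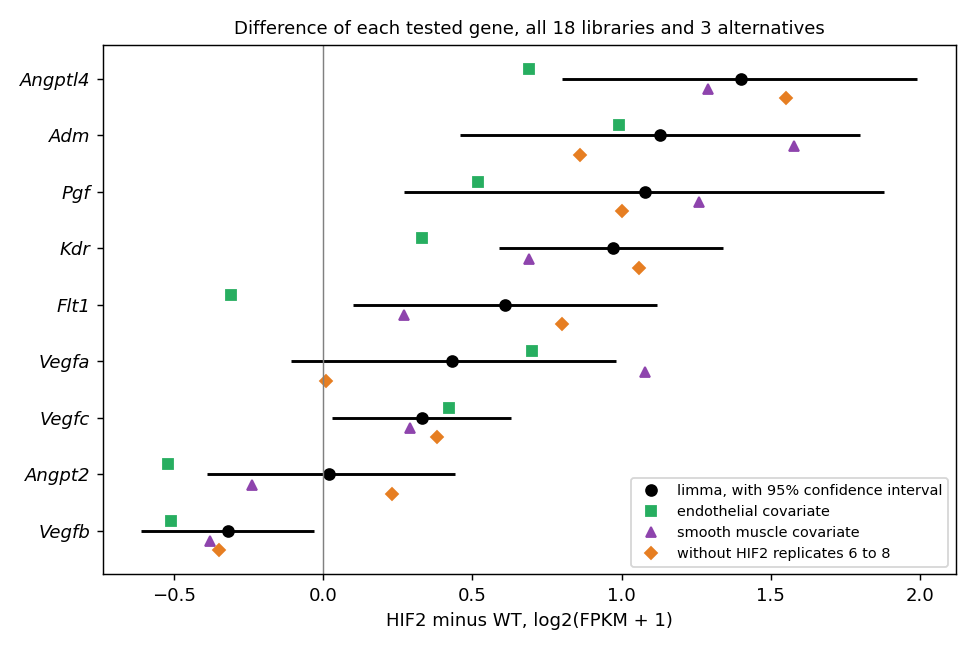
Difference between HIF2 and WT on the log2(FPKM + 1) scale for the 9 genes tested, with the 95% confidence interval from limma as a black line, and the value under 3 alternatives as coloured symbols. The endothelial covariate moves Kdr from 0.97 to 0.33 and Flt1 from 0.61 to -0.31, while leaving out HIF2 replicates 6 to 8 moves Vegfa from 0.43 to 0.01.

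Marker genes of endothelial cells were higher in HIF2, and so were those of several other cell types below the epithelium. Of 20 endothelial marker genes, which leave out the 10 genes described here, 16 were tested, 15 were called higher and 1, Clec14a, fell by 0.58 (limma adjusted p = 0.0149), with a median difference of 1.09. Of the 15, 7 had a WT mean under 1 FPKM and entered the test through their HIF2 level. Among the 9 with a WT mean of at least 1 FPKM 8 were called higher, and with no filter 18 of 20 were, beside 10.6% of all genes. Clec14a and Egfl7 had the highest means over all 18 libraries, and Egfl7 rose from 2.54 ± 1.35 to 9.47 ± 5.40 FPKM (SD, n = 9 each, limma adjusted p = 4.47e-04). The summed level of the 20 markers was 22.0 to 46.6 FPKM in WT and 35.3 to 188 FPKM in HIF2, and no marker was listed at 0 in 9 or more libraries. Relative to the WT mean, the mean of the tested markers lay between 0.97 and 2.13 on the log2 scale in HIF2 replicates 0 to 5 and at 0.40, 0.35 and 0.27 in replicates 6, 7 and 8. WT replicates 3 and 8 were at 0.56 and 0.49, above those 3 HIF2 libraries. Differences in the mean of other lists were larger than the 0.99 of the endothelial list. Smooth muscle genes had 18 of 20 called higher (mean difference 2.23), fibroblast genes 11 of 12 (2.17) and macrophage genes 10 of 10 (1.45). Enteric neuron and glia genes had 5 of 5 tested called higher (1.68), out of 11 matched. Those 11 summed to 1.72 to 8.95 FPKM in WT, so some could enter the test through their HIF2 level. Epithelial genes had 6 of 12 called lower (-0.43). Over all genes tested, 11.0% were called higher and 11.1% lower. Only the endothelial and smooth muscle means were used as covariates, with the limits given below. The part of the other cell types in the values of the 10 genes was not tested. In HIF2 replicates 6, 7 and 8 and WT replicates 3 and 8 Kdr was 2.98, 2.42 and 3.02 FPKM in HIF2 and 2.36 and 2.67 FPKM in WT.

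With the endothelial mean as a covariate, limma called 0 of the 9 genes, against 9.65% of all genes called higher. At an unadjusted p under 0.05, 0 of the 9 were higher and 2 lower. The share of all genes at that unadjusted threshold was not computed for this fit, so nothing is read from the 2. The differences became 0.33 for Kdr (adjusted p = 0.215), 0.69 for Angptl4, 0.99 for Adm and -0.31 for Flt1. The covariate was itself 0.99 higher in HIF2, so this fit cannot tell apart what the genotype and the endothelial level share. With smooth muscle genes in that place 4 of the 9 were higher, namely Adm (1.58), Angptl4 (1.29), Kdr (0.69) and Vegfa (1.08), beside 7.13% of all genes. The smooth muscle mean was itself 2.23 higher in HIF2, so that fit has the same limit.

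Within each group, the relation of each gene to the endothelial mean was computed over 9 libraries, 20 relations in all. Pearson's r had an adjusted p under 0.05 in 7 of them by an exact permutation test over pairings, and Spearman's rho in 1. For Kdr, r was 0.937 in WT (exact permutation p = 0.00106, adjusted p = 0.0106, rho = 0.833, exact permutation p = 0.00827) and 0.804 in HIF2 (exact permutation p = 0.0103, adjusted p = 0.0320, rho = 0.667, exact permutation p = 0.0589). Without the 2 libraries farthest from the median endothelial mean, WT replicates 3 and 8 or HIF2 replicates 0 and 8, r was 0.742 and 0.617 and the adjusted p was no longer under 0.05, with 7 libraries left. Flt1 gave 0.885 in WT and 0.845 in HIF2 (exact permutation adjusted p = 0.0180 and 0.0148, rho = 0.650 and 0.800, with exact permutation p = 0.0666 and 0.0138), and 0.295 and 0.597 without those libraries. A further 2 of the 7 were Vegfb in WT and Angpt2 in HIF2, and the last was Angpt1 in HIF2. Vegfb in WT had an r of 0.877 (exact permutation adjusted p = 0.0148, rho = 0.833, exact permutation p = 0.00827) and 0.603 without the farthest libraries. Angpt2 in HIF2 had an r of 0.798 (exact permutation adjusted p = 0.0320, rho = 0.667, exact permutation p = 0.0589) and 0.440 without the farthest libraries. Angpt1 in HIF2 was the 1 relation with an adjusted p under 0.05 also without them: r was 0.966 (exact permutation p = 7.44e-05, adjusted p = 0.00149), rho was 0.933 (exact permutation p = 7.50e-04, adjusted p = 0.0150), and without replicates 0 and 8 r was 0.923 (adjusted p = 0.0437). Vegfa in HIF2 had an r of -0.32 (exact permutation p = 0.405, rho = -0.333, exact permutation p = 0.385) and -0.727 without replicates 0 and 8, and Adm 0.077 (exact permutation p = 0.843, rho = 0.033, exact permutation p = 0.948).

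The HIF2 libraries fall apart along this axis, since replicates 6 to 8 have the 3 lowest endothelial means and differ in smooth muscle, fibroblast and pericyte genes as well, so an r over all 9 mixes the difference between these sets with the relation inside them. Within HIF2 replicates 0 to 5, a comparison chosen after seeing the data, Angpt1 had an r of 0.956 (exact permutation p = 0.00417, adjusted over 10 relations 0.0417, rho = 0.943, exact permutation p = 0.0167). Kdr had 0.933 and Flt1 0.961 (adjusted exact permutation p = 0.0451 for both), with rho of 0.829 and 0.714 (exact permutation p = 0.0583 and 0.136). Vegfa changed sign, from -0.32 over all 9 libraries to 0.896 within replicates 0 to 5 (exact permutation p = 0.0139, adjusted p = 0.0451, rho = 0.829, exact permutation p = 0.0583). The other genes did not reach an adjusted p under 0.05, though r was also high for several. It was 0.903 for Pgf (rho = 0.143), 0.828 for Adm, 0.799 for Angptl4 and 0.685 for Angpt2. It was 0.311 for Vegfb and -0.556 for Vegfc. Each of these relations rests on 6 libraries and includes replicate 0, which has the highest endothelial mean. Leaving out 2 more would take the number of libraries under 6, and replicates 6 to 8 are too few for a value of their own.

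**Figure D3:**
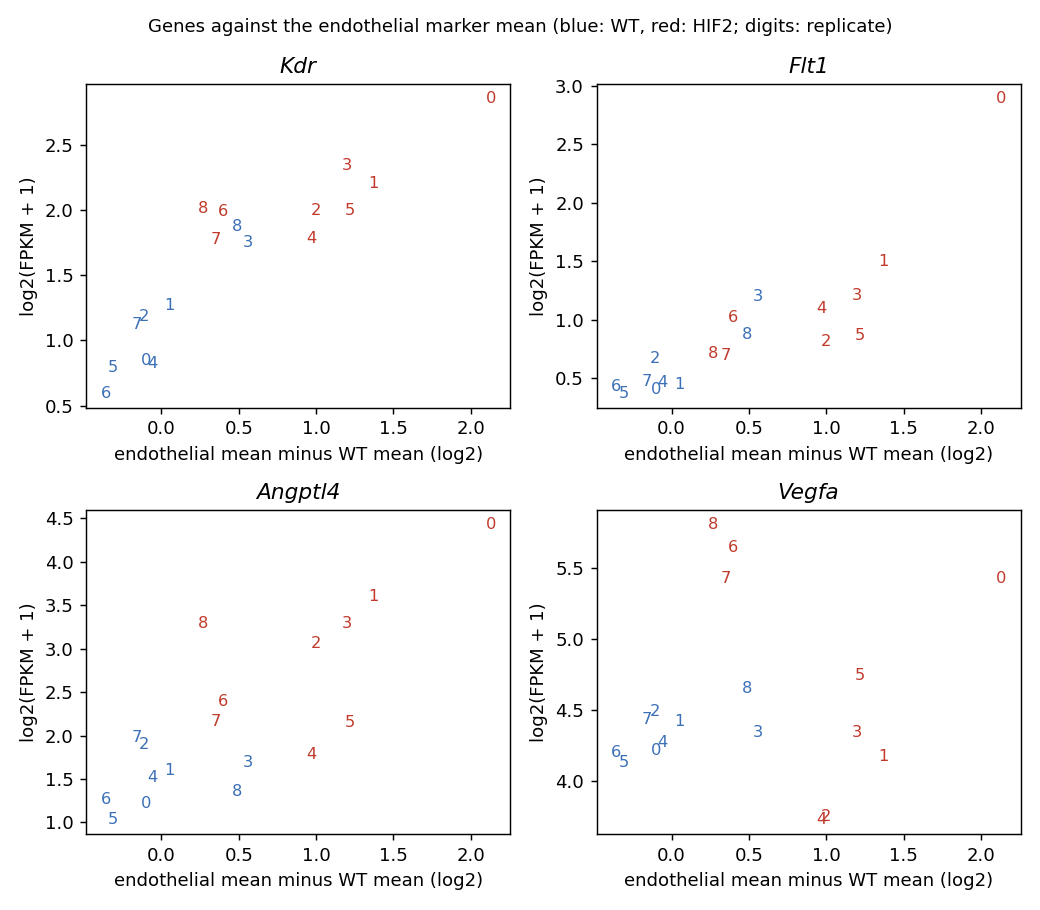
Expression of Kdr, Flt1, Angptl4 and Vegfa, as log2(FPKM + 1), against the mean of the tested endothelial markers relative to WT, with WT replicates as blue digits and HIF2 replicates as red digits. Kdr and Flt1 are highest in HIF2 replicate 0, where the endothelial mean is 2.13, whereas the highest Vegfa library, HIF2 replicate 8, has an endothelial mean of 0.27.

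The receptors and partners of these factors were examined in a list of 31 other vessel genes, of which 20 were tested. In HIF2 14 rose and 0 fell, with a median difference of 0.87 and beside 11.0% and 11.1% of all genes. Of the 14, 7 had a WT mean under 1 FPKM and entered the test through their HIF2 level. Among the 11 with a WT mean of at least 1 FPKM 7 were called higher, and with no filter 16 of 30 were, beside 10.6% of all genes. At an unadjusted p under 0.05 1 was lower, Ramp1, and the exact rank test called 11 higher and 1 lower. Of 10 tested receptors and co-receptors 8 rose. Calcrl, the receptor for adrenomedullin, lay between 1.58 and 4.49 FPKM in WT with a median of 3.03 and between 4.40 and 20 FPKM in HIF2 with a median of 12.9, and it rose by 1.64 (SE 0.24, limma adjusted p = 1.92e-04). A single HIF2 library was inside the WT range. Ramp2, outside the rule for named genes and chosen after its values were seen, is the partner that makes Calcrl an adrenomedullin receptor. It rose by 1.42 (limma adjusted p = 0.00682), while Ramp1, which makes the same protein a CGRP receptor and was likewise chosen afterwards, averaged 21.9 ± 5.29 FPKM over the WT libraries and 15.3 ± 4.19 FPKM over the HIF2 libraries (SD, n = 9 each, limma adjusted p = 0.0512). Nrp1, a co-receptor that strengthens VEGF-A binding to VEGFR2, had medians of 2.83 and 7.62 FPKM and rose by 0.88 (limma adjusted p = 0.00383). Tie1, the partner of TIE2, had medians of 0.558 and 1.95 FPKM and rose by 0.95 (limma adjusted p = 0.00395).

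Among 5 tested ligands and angiopoietin-like genes, 2 rose. Angptl2 had medians of 2.07 and 9.89 FPKM and rose by 1.26 (limma adjusted p = 0.0107), and Angptl7 had medians of 0.396 and 3.20 FPKM and rose by 1.06 (limma adjusted p = 0.0401). Among 5 other partners 4 rose. Gpihbp1, which carries lipoprotein lipase across capillary walls, was listed at 0 in most WT libraries and at most at 1.01 FPKM, and lay between 0.794 and 4.41 FPKM in HIF2 (1.12, limma adjusted p = 0.00334). Ptprb, the endothelial phosphatase that acts on TIE2, rose by 1.02 (limma adjusted p = 0.00962), and Itgav, an integrin subunit gene, by 0.79 (limma adjusted p = 0.0153). Epo, the classic hormone target of HIF-2α in kidney and liver, was also named after its values were seen and was listed at 0 in all 18 libraries. Many of these genes are endothelial, and with the endothelial mean or the smooth muscle mean as a covariate 2 of the 20 were called higher, near the 9.65% and 7.13% of all genes called higher in those fits.

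The order of the levels shifted between the groups. In WT, Vegfa at 19.5 ± 2.38 FPKM exceeded every value of the next gene, Adm, and was above 70.5% of all genes tested. From Adm down through Vegfb, Vegfc, Angptl4, Kdr, Angpt2, Flt1, Angpt1 and Pgf, the ranges of each pair of neighbours overlapped. In HIF2 the order was Vegfa, Adm, Angptl4, Kdr, Vegfc, Vegfb, Pgf, Flt1, Angpt2 and Angpt1, with all neighbouring ranges overlapping. Angptl4 was above Kdr in all 9 HIF2 libraries and in 7 of the 9 WT libraries.

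**Figure D4:**
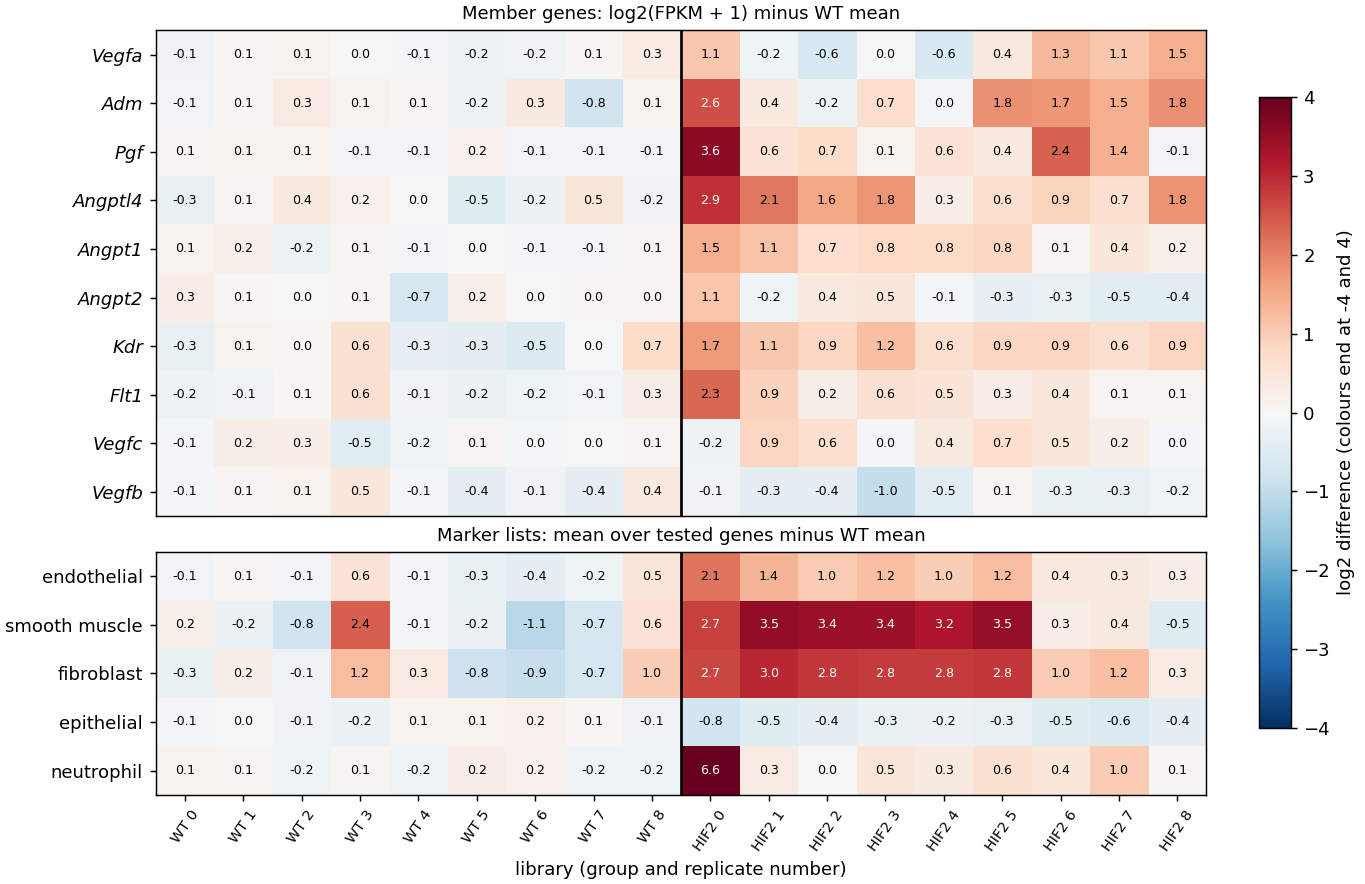
Each cell gives the log2(FPKM + 1) value of a gene (upper block) or the mean of a marker list over its tested genes (lower block) minus its WT mean, in the 18 libraries. HIF2 replicates 0, 6, 7 and 8 are high in Vegfa, HIF2 replicates 0 to 5 are high in endothelial, smooth muscle and fibroblast genes, and the neutrophil mean of 6.56 stands in HIF2 replicate 0 alone.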

How the data were processed

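Values were the deposited FPKM, 1 column per library for 18 libraries, made by the authors. Cuffdiff 2.1.1, Cufflinks, TopHat2 2.0.9, Bowtie2 2.1.0.0, FastQC and the mm10 build appear, without roles, in the submitters' processing notes. Strand setting, annotation release and read depth were not given in the sources used here, so no counting interval was computed. Column sums ran from 686539 to 937505.

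Analysis used log2(FPKM + 1), which understates changes of low genes, and two-sided tests by limma 3.58.1 (R 4.3.3), the prior following the mean level, over genes with a mean of at least 1 FPKM. Single values were compared by exact permutation over 48620 splits, whose smallest p is 4.11e-05. The limma procedure was tested on simulated data. The highest correlation between 2 libraries was 0.931 and none were merged. Members and gene lists were chosen with earlier results of these data known. Text names all 10 genes, Epas1, the 2 most abundant endothelial markers, and up to 8 pathway genes with the smallest p, at most 3 per role; exceptions are stated. Coordinates are 1-based, GENCODE M21 on GRCm38, the assembly of mm10. Figures used matplotlib 3.10.9.

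Alternatives were pseudocounts of 0.1 and 0.01, a filter at 5 FPKM or none, 3 scalings, an exact rank test, array weights, a replicate block, a robust prior, covariates for endothelial, smooth muscle and Y-linked genes, HIF2 replicates 6 to 8 left out, and each library left out.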

Additional observations from a re-analysis of the deposited data

Results flagged for a closer look

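In 3 places a single library lay far from the other 8 of its group, by the gap to its nearest neighbour as a share of the group's whole range on the log2 scale, above Dixon's 95% critical value for 9 libraries. Flt1 in HIF2 replicate 0 had a share of 0.635, at 6.43 FPKM. Angpt2 in WT replicate 4 had a share of 0.696 and was the low one, at 0.382 FPKM. Adm in WT replicate 7 had a share of 0.523 and was also low, at 2.00 FPKM. Chance flags about 5% of groups.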

How the results depend on the processing

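Kdr and Angptl4 stayed higher and past the threshold in every alternative in which they were tested except the endothelial covariate, with differences from 0.33 to 1.52 and from 0.69 to 1.80. Pgf had a larger difference than Angptl4 with pseudocounts of 0.1 (2.61 against 1.75) and 0.01 (4.17 against 1.80). Adm lost its call in 3 alternatives, given above. Epas1 did not pass the threshold in any of its 33 alternatives, with differences from 0.08 to 0.40 and a lowest limma adjusted p of 0.0744.

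The number of the 10 genes called higher was 3, and 5 with pseudocounts of 0.1 and 0.01, upper quartile scaling and array weights, 4 with no filter (Angpt1 added), the robust prior (Pgf added), the smooth muscle covariate (Vegfa added) and the exact rank test (Pgf and Flt1 added, Adm lost), 1 with the filter at 5 FPKM, where 2 were tested, and 0 with the endothelial covariate. It was 3 to 5 with 1 library left out, 5 without HIF2 replicate 0. The number called lower was 0, and 1 (Vegfb) with quantile normalization or array weights. Over all 13976 genes tested 1531 were higher and 1557 lower. Higher genes were 640 of 9287 with the filter at 5 FPKM (33.8% of calls against 49.6%) and 2407 of 22774 with no filter (60.8%). Among the 13976 they were 2426 with upper quartile scaling (72.1%, with 940 lower) and 997 with the smooth muscle covariate. Array weights called 2001 higher and 2252 lower. The 5 genes called with array weights or upper quartile scaling thus stand beside more calls over all genes. Higher genes were 1516 and 1479 with pseudocounts of 0.1 and 0.01, 1519 with the robust prior and 1227 with the exact rank test. They were 1348 with the endothelial covariate and 1591 without HIF2 replicate 0. Quantile normalization called 1749 lower. Upper quartile scaling moved the median of all genes by 0.102.

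Angpt2 turned negative with pseudocounts of 0.1 (-0.01) and 0.01 (-0.01), quantile normalization (-0.16), and the endothelial (-0.52) and smooth muscle (-0.24) covariates, and ran from -0.11 to 0.08 with 1 library left out. Flt1 turned negative with the endothelial covariate (-0.31). Relations with the endothelial mean that changed sign without the 2 farthest libraries were, in WT, Vegfc (0.236), Pgf (0.215), Adm (-0.036) and Angpt2 (-0.231), and in HIF2, Vegfb (-0.14), Vegfc (0.324), Pgf (-0.87) and Adm (-0.445). Within HIF2 replicates 0 to 5, an alternative chosen after seeing the data, Vegfa changed sign (0.896). The cause was not tested.

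The replicate numbers did not pair the libraries, since 1 of 9 same-numbered pairs had a correlation of deviations over 0.1. With the number as a replicate block 1355 genes were higher and 1345 lower, and the same 3 of the 10 genes were called. 1 of 18 libraries correlated best with its own number. The read depth is unknown, which limits what can be said of Pgf, Angpt1 and Flt1.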
